A study of Mus musculus with 12 samples.

Results

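The 10 genes described here belong to the core of the Hippo pathway and were followed through the pubertal transition in mouse oocytes, namely the kinase genes Stk3, Stk4, Lats1 and Lats2, the kinase adaptor gene Sav1, the co-activator genes Yap1 and Wwtr1, and the DNA-binding partner genes Tead1, Tead2 and Tead4. They were chosen by symbol, and all 10 were found among the 24562 genes of the count table. In the Hippo pathway, the kinases encoded by Stk3 and Stk4 act with the adaptor protein SAV1 to activate the kinases LATS1 and LATS2, which phosphorylate YAP1 and its paralog TAZ (encoded by Wwtr1) and so keep them out of the nucleus. Unphosphorylated YAP1 and TAZ enter the nucleus, where they bind TEAD proteins and switch on genes of growth and cell survival. The pathway limits organ size in many tissues. In the mouse embryo it separates the outer trophectoderm from the inner cell mass through TEAD4, and in the ovary it takes part in the control of follicle growth. Phosphorylation and location of these proteins leave no direct trace in RNA counts, so the values below describe transcript levels only.

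RNA was sequenced from 12 pools of CD-1 mouse oocytes (18 to 45 oocytes each), and each of the 4 cohorts had 3 pools. Cohorts were postnatal day (PND) 13, PND 16 mice of lower body weight (PND 16 small), PND 16 mice of higher body weight (PND 16 large) and PND 40, with no transgene or treatment of the mice. The study classed oocytes of PND 13 and PND 16 small mice as meiotically non-competent and those of PND 16 large and PND 40 mice as competent, that is, able to resume and complete the first meiotic division in culture. All oocytes were arrested with an intact germinal vesicle and came from antral follicles of unstimulated ovaries, with the cumulus cells stripped off by pipetting. The labels do not say whether pools of a cohort came from separate mice, whereas the study's text speaks of 3 mice and independent pools, so p-values measure the spread between these pools. Both PND 16 cohorts share their age and differ in weight and competence class. The comparison of PND 16 small with PND 13, and that of PND 40 with PND 16 large, differ in age within 1 class, and in all other comparisons age and competence cannot be told apart.

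The pools held 17671193 to 27418358 counts each. Of 15 oocyte markers, all 15 were tested, and their summed level was 18370 to 25670 CPM (counts scaled to a common library size) over the pools. Granulosa and cumulus markers, which stand for the somatic cells that surround the oocyte, were also present, with 20 of 20 tested and a summed level of 405.5 to 955.2 CPM. That sum was led by Serpine2 (241 ± 25.4 CPM in non-competent and 292 ± 36.6 CPM in competent oocytes, SD, n = 6) and Nr5a2 (126 ± 21.4 and 92.2 ± 3.08 CPM), a protease inhibitor gene and a nuclear receptor gene. Serpine2 rose by a log2 fold change of 0.28 (adjusted p = 0.0342, edgeR), unlike most of the list. Other markers varied more, such as Inha, named after its values were seen (65.7 ± 65.4 and 16.1 ± 4.48 CPM). The sum therefore mutes their spread, and how much of it came from somatic cells was not tested. The 3 pools that stood apart in the sum were PND 16 small replicate 2 (955.2 CPM), PND 13 replicate 3 (920.5 CPM) and PND 13 replicate 1 (798.1 CPM), against at most 546.6 CPM in the other 9. In competent vs. non-competent oocytes 5 of the 20 markers were lower and none higher (median log2 fold change -1.51), so the calls below were also computed without these 3 pools. Of the theca and stroma markers 9 of 12 were tested and none was called in this comparison (summed level 12.1 to 53.6 CPM). Of the endothelial and blood markers 4 of 11 were tested, Kdr was called higher, and the 4 hemoglobin genes had no read (summed level 68.2 to 96.4 CPM).

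Yap1 was by far the most abundant of the 10 transcripts. Levels of different genes are compared as CPM per kb of exon, using GENCODE M21 exon lengths on GRCm38, where the 13943 genes tested had a median of 5.02 CPM per kb. Yap1 (chr9:7931999-8004596, minus strand) averaged 215 CPM per kb over the 12 pools, which placed it at rank 137 of the 13753 tested genes that had a length. The adaptor gene Sav1 followed with 24.3 CPM per kb, Stk3 with 19.6, Stk4 with 7.81 and Lats1 with 7.50, all above the median gene. Tead1 (3.23 CPM per kb), Wwtr1 (1.42), Tead2 (0.751) and Lats2 (0.454) lay below it. Paralogs differed in level. The Yap1 level per kb was 152 times that of Wwtr1 and 66.6 times that of Tead1, the TEAD gene with the highest level among the 3 studied here. Of the genes that differed across cohorts below, Stk4 lies at chr2:164070322-164155524 and Lats1 at chr10:7681214-7716460, both on the plus strand, Wwtr1 at chr3:57455649-57575910 on the minus strand and Tead1 at chr7:112679318-112906807 on the plus strand. The order of Stk4 and Lats1 in level cannot be told apart, since they were 9.77 ± 0.0142 and 8.23 ± 0.414 CPM per kb at PND 13 but 7.31 ± 0.478 and 9.27 ± 0.456 in PND 16 small (SD, n = 3). Stk3 and Sav1 lay within each other's spread in PND 16 large, with 21.7 ± 1.88 and 24.8 ± 1.68 CPM per kb. At PND 40 they lay apart, with 17.6 ± 1.47 and 25.4 ± 0.711 CPM per kb. Exons of Yap1, Sav1 and Tead2 share bases with a gene on the opposite strand (Gm20416, Atl1 and Cd37), and those of Lats2 with Gm49361 on the same strand. The libraries were directional, but the strand setting of the counting is not given in the sources used here, so reads of these pairs may be split.

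**Figure D1:**
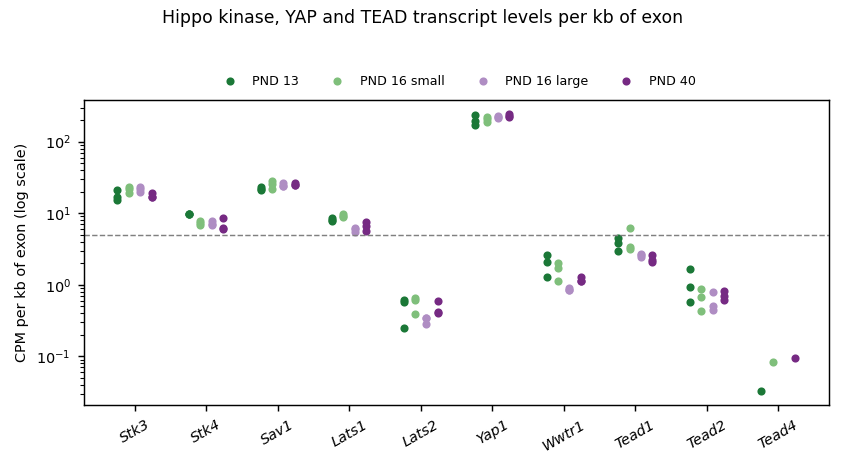
Transcript level of each of the 10 genes in CPM per kb of exon (log axis), with 1 point per oocyte pool coloured by cohort, n = 3 pools each. Pools with no read are not drawn, which leaves 3 points for Tead4, and the dashed line marks the median tested gene at 5.02 CPM per kb. Yap1 lies around 215 CPM per kb, above all other genes shown.

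Tead4, the TEAD gene known for its part in forming the trophectoderm of the blastocyst, was almost without reads. It had 16 reads in all, 3 in PND 13 replicate 2, 5 in PND 16 small replicate 3 and 8 in PND 40 replicate 1, and none in the other 9 pools. A count of 0 allows up to 0.110 to 0.146 CPM in these 9 pools (3 counts per pool, counting error only). The 3 PND 16 large pools were all at 0. Tead4 did not pass the filter on low counts, so 9 of the 10 genes were tested, and no difference in Tead4 between cohorts was detectable at this depth.

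Promoter sequences were looked up for the 10 genes in RefSeq (build GRCm38.p6, 250 bases before to 50 after the start of transcription), and 7 had an entry, Stk3, Tead1 and Tead4 having none. They are shown for the paralogs Yap1 and Wwtr1, which differed 152 times in level per kb, and for Lats1, which fell with Wwtr1 below. Capitals mark the letters GGAATG or, on the other strand, CATTCC, the core of the motif that TEAD proteins bind. The Yap1 window is chr9:8004547-8004846, minus strand, the Wwtr1 window is chr3:57575861-57576160, minus strand, and the Lats1 window is chr10:7680959-7681258, plus strand.
Yap1: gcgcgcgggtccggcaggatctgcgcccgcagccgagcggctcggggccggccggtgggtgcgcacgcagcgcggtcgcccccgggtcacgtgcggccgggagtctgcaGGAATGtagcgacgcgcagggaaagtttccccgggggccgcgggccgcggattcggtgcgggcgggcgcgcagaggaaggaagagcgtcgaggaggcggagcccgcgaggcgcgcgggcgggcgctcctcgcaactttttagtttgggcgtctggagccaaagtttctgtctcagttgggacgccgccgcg
Wwtr1: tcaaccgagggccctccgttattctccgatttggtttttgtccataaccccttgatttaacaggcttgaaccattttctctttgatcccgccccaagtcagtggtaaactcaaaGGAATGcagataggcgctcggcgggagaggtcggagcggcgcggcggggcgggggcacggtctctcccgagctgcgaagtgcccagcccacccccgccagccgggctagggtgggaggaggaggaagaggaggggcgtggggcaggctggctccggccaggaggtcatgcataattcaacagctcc
Lats1: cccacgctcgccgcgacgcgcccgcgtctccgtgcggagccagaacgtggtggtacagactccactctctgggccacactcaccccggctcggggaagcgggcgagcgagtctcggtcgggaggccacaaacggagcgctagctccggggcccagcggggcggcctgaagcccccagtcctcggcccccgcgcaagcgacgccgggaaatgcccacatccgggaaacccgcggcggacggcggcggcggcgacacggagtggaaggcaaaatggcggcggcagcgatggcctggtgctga
The Yap1 and Wwtr1 windows each held 1 match, as did those of Sav1 and Lats2 (1 of its 2 entries), whereas Lats1, Stk4 and Tead2 had none. In all, 5 of the 9 entries, which include 2 overlapping ones of Wwtr1, held the letters, against 14.7% of the 32851 mouse promoters of the same length. The letters TAATTG or CAATTA, bound by the oocyte factor NOBOX, were in 0 of the 9 entries and in 8.0% of all promoters. The GC content of the Yap1 window was 74.0%, of the Lats1 window 73.0% and of the Wwtr1 window 61.7%, against a median of 52.7% over all promoters. These matches are a description of letters in the reference and were not tested for binding.

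Next, it was asked which of the genes changed among the 4 cohorts. Lats1, Wwtr1, Tead1 and Stk4 differed across the cohorts (4 of 9 tested), whereas Yap1, Sav1, Stk3, Lats2 and Tead2 did not pass the test. Over all 13943 genes, 39.7% passed the same test, so the count of 4 of 9 (adjusted p of at most 0.05) is close to that of any genes. In edgeR's quasi-likelihood test, with p adjusted over all genes by Benjamini-Hochberg, the adjusted p was 0.00159 for Lats1, 0.0138 for Wwtr1, 0.0194 for Tead1 and 0.0233 for Stk4, with 0.0897 for Stk3 and 0.239 to 0.330 for the other 4. The omission of the 3 pools high in granulosa markers leaves PND 13 with replicate 2 alone. In that fit Lats1 and Tead1 remained past the threshold, and Wwtr1 and Stk4 did not. Stk4 was highest in the PND 13 pools, so for Stk4 this fit cannot separate the markers from the loss of those pools. Over the 12 pools Stk4 had Pearson r = 0.29 and Spearman rho = 0.13 with the marker sum (a description). The call of Stk4 was also lost without PND 13 replicate 1 (adjusted p = 0.0710) or replicate 3 (0.0783), and that of Tead1 without PND 40 replicate 1 (0.0564) or replicate 3 (0.0534). Stk3 passed without PND 13 replicate 2 (0.0233) or PND 16 small replicate 1 (0.0399) and by DESeq2 (0.0358).

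**Figure D2:**
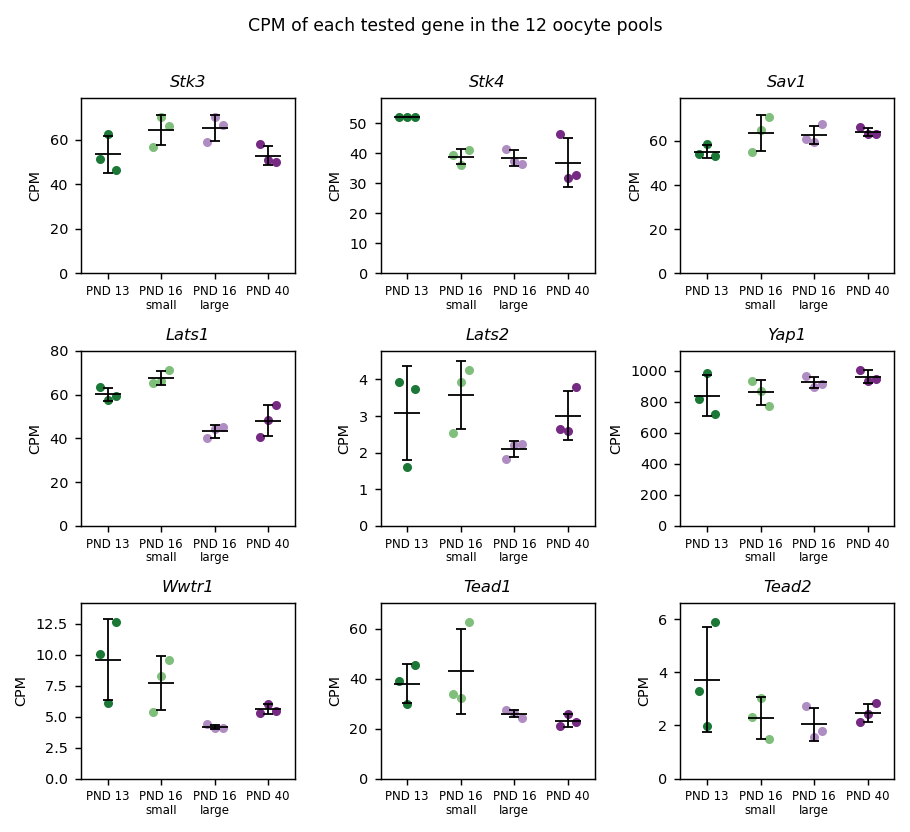
CPM of the 9 tested genes (vertical axes from 0) in the 4 cohorts, with 1 point per pool (n = 3), a horizontal bar for the mean and whiskers for the SD. Lats1 and Tead1 lie lower in both competent cohorts than in every non-competent pool, and Stk4 is high at PND 13 (51.9 to 52.1 CPM).

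Of the upstream kinases, Stk4 (also known as Mst1) measured highest at PND 13, though with no call in any pair of cohorts when all pools were used. Its paralog Stk3 (Mst2) did not pass the edgeR test across the cohorts. Stk4 measured 51.9, 52.0 and 52.1 CPM in the PND 13 pools, 39.4, 36.1 and 41.1 CPM in PND 16 small, 41.3, 37.4 and 36.4 CPM in PND 16 large and 46.2, 31.8 and 32.7 CPM at PND 40. Each PND 13 pool thus lay above each of the other 9 pools, and the 3 later cohorts overlapped. The log2 fold change against PND 13 was -0.49 ± 0.13 (SE, adjusted p = 0.0116, edgeR) at PND 40, -0.44 ± 0.13 (0.0276) in PND 16 large and -0.42 ± 0.13 (0.109) in PND 16 small. These are all below the 1.5-fold change required of a called gene, so Stk4 was not called in any pairwise comparison. Stk3 measured 53.6 ± 8.28 CPM at PND 13, 64.4 ± 6.87 in PND 16 small, 65.3 ± 5.66 in PND 16 large and 52.9 ± 4.41 at PND 40 (SD, n = 3), and no pairwise comparison passed (adjusted p from 0.102 to 0.933). The PND 40 pools of Stk3 (49.95 to 58.0 CPM) lay below the PND 16 large pools (59.2 to 70.3 CPM), with a log2 fold change of -0.30 ± 0.12 (SE, adjusted p = 0.161). Sav1, whose product links these kinases to LATS1 and LATS2, ranged over the 12 pools from 53.0 to 70.8 CPM and passed in no comparison.

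Lats1, the kinase gene directly upstream of YAP1 and TAZ, was lower in competent oocytes. It measured 63.4, 57.5 and 59.3 CPM in the PND 13 pools and 65.2, 66.4 and 71.5 CPM in PND 16 small. In PND 16 large it measured 40.0, 44.1 and 45.3 CPM, and at PND 40 it measured 40.8, 48.3 and 55.0 CPM. The highest competent pool (55.0 CPM) was still below the lowest non-competent one (57.5 CPM). Within the same age, Lats1 was 1.57-fold lower in PND 16 large than in PND 16 small oocytes (log2 fold change -0.65 ± 0.11, SE, adjusted p = 0.00341, edgeR), the 1 gene of the 9 called in this comparison, where 6.19% of all genes were called. That call held in all 6 fits without 1 of the pools compared (-0.68 to -0.59). In competent vs. non-competent oocytes the log2 fold change was -0.49 ± 0.09 (SE, adjusted p = 0.000984), a 1.40-fold difference that passed the p threshold but not the fold criterion. It was -0.50 (adjusted p = 0.0113) without the 3 pools high in granulosa markers and -0.50 (adjusted p = 0.00353) with the level of those markers as a covariate. Between PND 40 and PND 16 large, Lats1 did not pass the test (0.15 ± 0.11, adjusted p = 0.445). Its paralog Lats2 was low in every pool (1.60 to 4.27 CPM, 41 to 103 reads), with a log2 fold change of -0.38 ± 0.26 in competent vs. non-competent oocytes (SE, adjusted p = 0.295).

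Yap1 stayed high in all cohorts. It measured 816, 985 and 720 CPM in the PND 13 pools, 936, 873 and 775 CPM in PND 16 small, 964, 899 and 915 CPM in PND 16 large and 1009, 933 and 950 CPM at PND 40. The cohorts overlapped, and the competent pools were closer to each other (945 ± 39.2 CPM) than the non-competent ones (851 ± 99.8 CPM, SD, n = 6). The log2 fold change was 0.15 ± 0.07 (SE, adjusted p = 0.135, edgeR). Across the pools the Yap1 level ran against the granulosa marker sum (Pearson r = -0.71, Spearman rho = -0.74, n = 12 pools that share the total count as denominator, given as a description). Without the 3 pools high in granulosa markers the log2 fold change was 0.077 (adjusted p = 0.554, edgeR). With the marker level as a covariate it was 0.080 (adjusted p = 0.486). The cause of this shift was not tested.

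Wwtr1, which encodes TAZ, was called lower in competent oocytes, but not without the pools high in granulosa markers. It measured 10.1, 6.13 and 12.6 CPM in the PND 13 pools, 5.34, 8.24 and 9.61 CPM in PND 16 small, 4.38, 4.10 and 4.10 CPM in PND 16 large and 5.32, 6.05 and 5.44 CPM at PND 40. The highest values were those of PND 13 replicates 3 and 1, both high in granulosa markers, and 1 non-competent pool (5.34 CPM) lay within the range of the competent ones. Over the 12 pools Wwtr1 had Pearson r = 0.66 with the marker sum, but Spearman rho was 0.27 (a description). In competent vs. non-competent oocytes the log2 fold change was -0.82 ± 0.21 (SE, adjusted p = 0.00864), and in PND 16 large vs. PND 13 it was -1.20 ± 0.27 (adjusted p = 0.00672). Without the 3 pools high in granulosa markers the first became -0.51 (adjusted p = 0.146), and with the marker level as a covariate it became -0.59 (adjusted p = 0.0701). The same omission leaves PND 13 with replicate 2 alone (6.13 CPM, the lowest of its pools), whose spread is taken to be that of the other cohorts, and gave -0.55 (adjusted p = 0.318) in PND 16 large vs. PND 13. In a bulk pool, fewer somatic cells and less Wwtr1 RNA per cell cannot be told apart. PND 16 small replicate 3, with a granulosa marker sum of 524.3 CPM, also had a high Wwtr1 level (9.61 CPM). Its theca and stroma marker sum was 38.7 CPM, whereas PND 16 large replicate 2 had the highest such sum (53.6 CPM) and 4.10 CPM of Wwtr1. The source of the Wwtr1 RNA in PND 16 small replicate 3 was not tested.

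Of the TEAD genes, Tead1 was lower in competent oocytes in every pool. It measured 38.9, 29.7 and 45.3 CPM in the PND 13 pools and 33.9, 32.1 and 62.6 CPM in PND 16 small. It measured 27.2, 26.4 and 24.4 CPM in PND 16 large and 21.1, 26.0 and 22.6 CPM at PND 40. The highest competent pool (27.2 CPM) lay below the lowest non-competent pool (29.7 CPM), and PND 16 small replicate 3 stood far above the other pools. In competent vs. non-competent oocytes Tead1 fell 1.64-fold (log2 fold change -0.72 ± 0.16, SE, adjusted p = 0.00383, edgeR). The log2 fold change was -0.76 (adjusted p = 0.0185) without the 3 pools high in granulosa markers, -0.70 (adjusted p = 0.0142) with the marker level as a covariate, and -0.56 (adjusted p = 0.00295) without PND 16 small replicate 3, which is below the 1.5-fold criterion. Tead2 was low (1.48 to 5.89 CPM), highest in PND 13 replicate 3, and did not pass in any comparison of all pools (-0.42 ± 0.31 in competent vs. non-competent oocytes, adjusted p = 0.327).

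**Figure D3:**
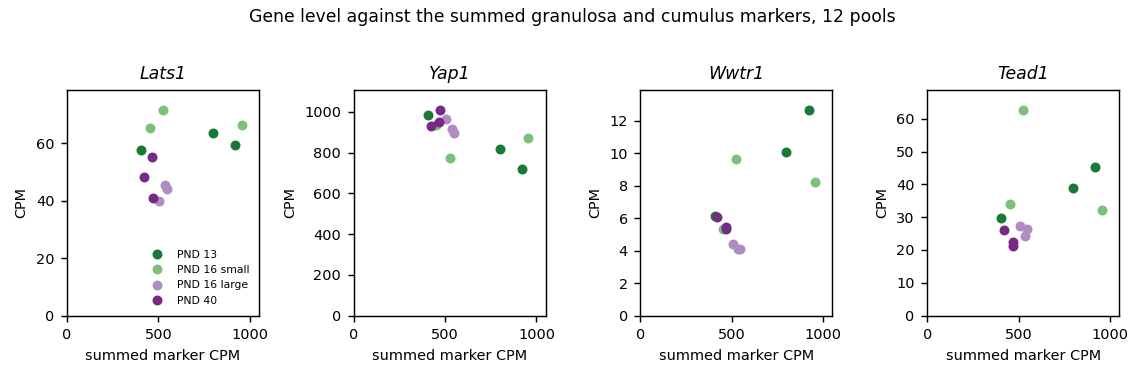
CPM of Lats1, Yap1, Wwtr1 and Tead1 (vertical axes from 0) against the summed CPM of 20 granulosa and cumulus markers, with 1 point per pool coloured by cohort (n = 12). The 3 pools high in the markers lie at 798.1 to 955.2 summed CPM and the other 9 at 405.5 to 546.6, and among these 9 the non-competent pools still lie above the competent ones for Lats1 and Tead1.

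In competent vs. non-competent oocytes as a whole, 2 of the 9 genes were called, Tead1 and Wwtr1, both lower, and none was higher, where 11.2% of all genes tested were called lower. With the adjusted p alone and no fold criterion, Lats1 made it 3 of 9 lower, against 16.5% of all genes. The 6 competent and 6 non-competent pools did not overlap for Lats1 and Tead1, 2 of 9, where 14.7% of all genes did not overlap. Lats1, Wwtr1 and Tead1 also resembled each other over the 12 pools, with Pearson r = 0.78 for Wwtr1 and Tead1, 0.75 for Lats1 and Tead1 and 0.73 for Lats1 and Wwtr1. Yap1 ran the other way, with r = -0.84 against Tead1 and -0.82 against Wwtr1. These correlations of log2 CPM are descriptions, since the pools share cohorts and the values of a pool share its total count.

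Each pair of cohorts was then compared. At most 2 of the 9 genes were called in any pair, and all of them were lower in the older or heavier cohort. In PND 40 vs. PND 13, where 18.9% of all genes were called, Tead1 (log2 fold change -0.71 ± 0.23, SE, adjusted p = 0.0314, edgeR) and Wwtr1 (-0.78 ± 0.27, adjusted p = 0.0396) were called. Both calls were sensitive to single pools, as 0 of the 9 genes were called without PND 13 replicate 1, PND 13 replicate 3 or PND 40 replicate 3, 1 (Tead1) without PND 40 replicate 2, and 1 (Stk4, -0.69, adjusted p = 0.00130) without PND 40 replicate 1. Without the 3 pools high in granulosa markers the changes were -0.35 (adjusted p = 0.421) for Tead1 and -0.13 (adjusted p = 0.837) for Wwtr1, with PND 13 then left with 1 pool whose spread is taken to be that of the other cohorts. In PND 40 vs. PND 16 small, where 17.2% of all genes were called, Tead1 alone was called (-0.88 ± 0.23, adjusted p = 0.0118). That call was lost without PND 16 small replicate 3 (-0.51, adjusted p = 0.0350) or PND 40 replicate 1 (-0.82, adjusted p = 0.0514), and Lats1 joined it without PND 40 replicate 3 (-0.60, adjusted p = 0.00305).

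In PND 16 large vs. PND 13, where 13.3% of all genes were called, Wwtr1 alone was called, and without PND 13 replicate 2 Tead1 (-0.71, adjusted p = 0.0449) and Tead2 (-1.19, adjusted p = 0.0452) were called too. In PND 16 large vs. PND 16 small, Tead1 (-0.72 ± 0.23, SE, adjusted p = 0.0587, edgeR) and Wwtr1 (-0.88 ± 0.27, adjusted p = 0.0504) fell just outside the threshold beside the call of Lats1. Both were called without PND 16 small replicate 1 (adjusted p = 0.0404 and 0.0189), and Tead1 without PND 16 small replicate 2 (0.0227). Over the 6 fits without 1 of the pools compared, the log2 fold change ran from -0.885 to -0.344 for Tead1 and from -1.08 to -0.695 for Wwtr1. Tead1 was far higher in PND 16 small replicate 3 (62.6 CPM) than in the other pools. None of the 9 genes was called in PND 40 vs. PND 16 large, where 3.66% of all genes were, nor in PND 16 small vs. PND 13, where 0.373% were. In each of these last comparisons 1 of the 9 genes had an unadjusted p under 0.05 by edgeR, Stk3 in the former and Stk4 in the latter. Of all genes tested, 22.4% had such a p in the former and 19.2% in the latter. DESeq2 also called 0 of the 9 in each. These comparisons share cohorts, so their values are not independent of each other.

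**Figure D4:**
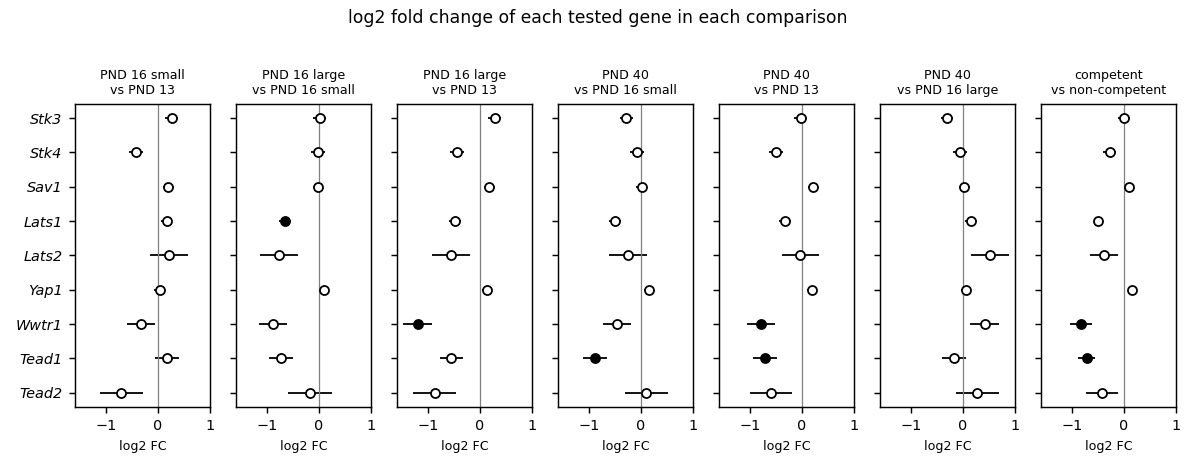
log2 fold change (horizontal axes) of the 9 tested genes in the 6 pairwise comparisons and in competent vs. non-competent oocytes, with whiskers for the SE. Filled points are called genes (1.5-fold or more with an adjusted p up to 0.05, edgeR), of which the 2 in the competent comparison are Wwtr1 at -0.82 and Tead1 at -0.72.

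The balance between paralogs was also compared, as the log2 ratio of the CPM values within each pool. The Yap1 to Wwtr1 ratio ran from 5.82 to 7.43 in the non-competent pools and from 7.25 to 7.77 in the competent pools, a mean difference of 0.93 (6.65 ± 0.62 vs. 7.58 ± 0.21, SD, n = 6, two-sided exact permutation test p = 0.0108, adjusted p = 0.0649 over 6 ratios). It was therefore not past the threshold after adjustment, and it was 0.56 (adjusted p = 0.167) without the 3 pools high in granulosa markers. Without PND 13 replicate 2 it was 1.06 (adjusted p = 0.0390, exact permutation test) and without PND 16 small replicate 1 it was 1.08 (0.0260). The ratio of Stk3 to Stk4 differed by 0.27 (adjusted p = 0.610, exact permutation test), that of Lats1 to Lats2 by -0.15 (0.623) and that of Tead1 to Tead2 by -0.37 (0.623). Ratios to Tead4 are not given, because they follow the prior count added to its zeros.

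Genes that act with or on these 10 were counted in 4 lists, to be read against the 3.78% of all genes called higher and the 11.2% called lower in competent vs. non-competent oocytes. Among core partners, which include the kinase cofactors Mob1a and Mob1b, the upstream regulator Nf2 and other MAP4K and TEAD family genes, 27 of 28 were tested, 1 was called higher and 1 lower in competent oocytes (median log2 fold change -0.06, against -0.005 for all genes). The called genes were Tnik, a MAP4K family kinase gene (17.4 ± 2.63 CPM in non-competent and 28.7 ± 3.16 in competent oocytes, SD, n = 6, log2 fold change 0.73 ± 0.11, SE, adjusted p = 0.000372), and Vgll1, a gene for a TEAD cofactor (11.9 ± 2.10 and 7.71 ± 1.59 CPM, -0.63 ± 0.17, adjusted p = 0.0108). The call of Vgll1 fell below 1.5-fold without PND 13 replicate 1 (-0.57), PND 16 small replicate 1 (-0.58), PND 16 large replicate 3 (-0.58) or PND 40 replicate 3 (-0.57). Of further partners, named after their values were seen, Vgll4, whose product competes with YAP1 for TEAD, changed by -0.53 ± 0.10 (adjusted p = 0.00162) and Mob1a by -0.47 ± 0.12 (adjusted p = 0.00811), both short of 1.5-fold, a criterion Vgll4 met without PND 16 large replicate 2 (-0.62, adjusted p = 0.000428). Nf2, the gene of the activator merlin, changed by 0.33 ± 0.07 (adjusted p = 0.00360), also short of it.

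Tead3, the remaining TEAD gene, also named after its values were seen, was highest at PND 40. It measured 1.39, 3.44 and 4.05 CPM in the PND 13 pools, 2.04, 1.14 and 1.72 CPM in PND 16 small, 2.41, 2.52 and 1.75 CPM in PND 16 large and 7.29, 6.53 and 6.76 CPM at PND 40. Each PND 40 pool lay above each of the other 9. The log2 fold change of PND 40 was 2.07 against PND 16 small (adjusted p = 0.00130, edgeR), 1.62 against PND 16 large (0.0193) and 1.21 against PND 13 (0.0201), so it was called higher in all 3. The call against PND 16 small held without any 1 pool compared. That against PND 16 large was lost without any 1 of the 6 pools (adjusted p from 0.0561 to 0.0997), and that against PND 13 without PND 13 replicate 1 (0.0564) or PND 40 replicate 1 (0.0624) or 3 (0.0509). Without the 3 pools high in granulosa markers, the log2 fold change of PND 40 was 1.87 against PND 16 small and 1.62 against PND 16 large. Against PND 13, then left with replicate 2 alone, it was 0.997. When PND 40 was joined with PND 16 large, in competent vs. non-competent oocytes, Tead3 was not called (0.98 ± 0.42, SE, adjusted p = 0.0888), but it was as a contrast of cohort means (0.83, adjusted p = 0.0219) and without PND 16 large replicate 3 (1.13, adjusted p = 0.0478).

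Called regulators at cell junctions and polarity complexes lay on both sides. Of 30 found under 31 symbols, 29 were tested, 4 were called higher and 4 lower, the latter a share near that of all genes (median log2 fold change 0.18). Among the called genes, the 2 largest changes in each direction were those of Dlg2 (6.38 ± 1.47 CPM in non-competent and 12.9 ± 1.81 in competent oocytes, SD, n = 6) and Prkcz (1.06 ± 0.413 and 2.11 ± 0.638 CPM), which were higher, and of Frmd6 (11.8 ± 4.04 and 3.81 ± 2.21 CPM) and Dlg3 (4.76 ± 1.47 and 1.87 ± 0.339 CPM), which were lower. Dlg2 and Dlg3 encode scaffold proteins of the same family, Prkcz an atypical protein kinase C, and Frmd6 a FERM domain protein. Their log2 fold changes were 1.02 ± 0.16 (SE, adjusted p = 0.000428, edgeR) for Dlg2, 0.99 ± 0.33 (0.0355) for Prkcz, -1.63 ± 0.38 (0.00537) for Frmd6 and -1.35 ± 0.23 (0.000670) for Dlg3. Without the 3 pools high in granulosa markers, Dlg2 (1.25, adjusted p = 0.000864) and Dlg3 (-1.20, 0.00538) were still called, whereas Frmd6 (-1.37, 0.0683) and Prkcz (0.93, 0.106) were not. Prkcz, near 1 to 2 CPM, was also not called with the marker covariate (0.81, 0.147) or without any 1 of 7 pools, namely PND 13 replicate 1, PND 16 small replicates 1 and 2, PND 16 large replicate 3 and each PND 40 pool (adjusted p from 0.0525 to 0.0928).

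Of the genes for the opposing phosphatase complex and for turnover and retention of YAP1, 28 of 29 were tested, none was called higher and 3 lower, about the share of all genes called lower (median log2 fold change 0.025). The same number was called without the 3 pools high in granulosa markers. Among the 3 were Ppp2cb, a catalytic subunit of protein phosphatase 2A (17.7 ± 4.32 CPM in non-competent and 4.94 ± 1.39 in competent oocytes, SD, n = 6, log2 fold change -1.84 ± 0.20, SE, adjusted p = 3.79e-05), and Sike1, a component of the STRIPAK complex that recruits this phosphatase to MST kinases (5.61 ± 1.32 and 2.39 ± 0.55 CPM, -1.23 ± 0.22, adjusted p = 0.000825). The third was Strn3, a striatin of the same complex (70.8 ± 8.76 and 32.3 ± 2.48 CPM, -1.13 ± 0.09, adjusted p = 1.20e-05), named here after its values were seen. The other catalytic subunit gene, Ppp2ca, was more abundant than Ppp2cb (142 ± 8.42 CPM in non-competent and 151 ± 7.39 in competent oocytes) and changed by 0.08 ± 0.06 (adjusted p = 0.287).

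Among known target genes of YAP1 and TEAD in other cells, 23 were found under 25 symbols, Lats2 among them, and 18 of these averaged less than 10 CPM over the pools. Of the 23, 18 were tested, 1 was called higher and 3 lower (median log2 fold change -0.40), where 3.78% of all genes were called higher and 11.2% lower. Without the 3 pools high in granulosa markers the median was 0.099, with 0 called higher and 1 lower, and with the marker covariate it was 0.12, with 0 higher and 2 lower. Ptpn14, which is also in the junction list, was higher (5.74 ± 1.13 CPM in non-competent and 9.60 ± 4.48 in competent oocytes, SD, n = 6, log2 fold change 0.74 ± 0.26, SE, adjusted p = 0.0414). The largest falls were those of Fjx1 (3.84 ± 2.49 and 0.936 ± 0.487 CPM, -2.03 ± 0.49, adjusted p = 0.00664) and Axl, a receptor tyrosine kinase gene (7.33 ± 5.65 and 1.95 ± 1.29 CPM, -1.90 ± 0.60, adjusted p = 0.0289). Without the 3 pools Fjx1 was at -2.17 (adjusted p = 0.0181), Axl at -0.53 (0.569) and Ptpn14 at 0.73 (0.160). Axl was also not called without 1 of 6 pools, namely PND 13 replicate 1 or 3, PND 16 large replicate 1 or 3 or PND 40 replicate 1 or 2 (adjusted p from 0.0601 to 0.0704). Ptpn14 was called without PND 16 small replicate 2, PND 16 large replicate 3 or PND 40 replicate 1 and lost its call without each of the other 9 (adjusted p from 0.0525 to 0.114). Birc5, an inhibitor of apoptosis gene named after its values were seen, was abundant (149 ± 5.31 and 206 ± 5.69 CPM) and changed by 0.47 ± 0.05 (adjusted p = 2.68e-05), short of 1.5-fold. The other targets at 10 CPM or more, named in the same way, were not called. Their log2 fold changes were 0.22 for Dock5, 0.21 for Asap1, 0.12 for Tgfb2 and -0.28 for Arhgef17. The widely used readouts of YAP1 activity, Ctgf and Cyr61 (also Ccn2 and Ccn1), were below 1 CPM, with 0.657 ± 0.579 and 0.410 ± 0.228 CPM for Ctgf and 0.617 ± 0.609 and 0.687 ± 0.462 CPM for Cyr61 in non-competent and competent oocytes. Neither passed the test (adjusted p = 0.538 and 0.887). The sign of Ctgf changed without the 3 pools (1.34, adjusted p = 0.400).

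**Figure D5:**
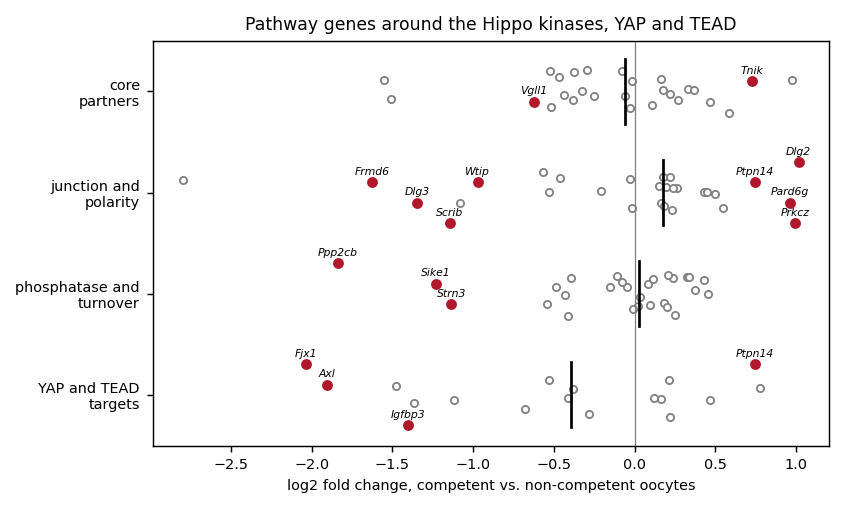
log2 fold change in competent vs. non-competent oocytes (horizontal axis) of the tested genes of the 4 lists (rows), with filled red points for called genes, open points for the rest and a black bar for the median of each list. Called genes lie on both sides in the junction and polarity list (4 higher, 4 lower), and the 3 called phosphatase genes all lie below 0.

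Finally, the genes whose levels over the 12 pools were most like those of each member were listed by Pearson correlation of log2 CPM among the 11947 genes that averaged 1 CPM or more. For Lats1 these were Fmnl2 (r = 0.96) and Cyld (0.95), for Tead1 Akap11 (0.95) and Pbrm1 (0.93), and for Wwtr1 Scube1 (0.95) and Kdm5b (0.94). For Yap1 they were Galk2 and Tarbp2 (0.94 each), and for Sav1 Slc17a6 (0.95) and Glcci1 (0.94). For Stk3 they were Phf7 (0.93) and Nrcam (0.93), for Stk4 Usb1 (0.87) and Dennd6b (0.85), for Lats2 Dcpp1 (0.92) and Sik3 (0.90), and for Tead2 Cpsf1 (0.95) and Stxbp2 (0.88). With 11947 candidates and 12 pools such values are a description only.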

How the data were processed

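RNA-Seq data of 12 oocyte pools, 3 per cohort, were used, with cohorts and replicate numbers from the deposited labels. Reads were aligned and counted on the Rosalind platform, and the submitters' processing notes name FastQC, STAR, HTSeq, DESeq2, HOMER and the build mm10, without versions. The authors deposited raw counts per gene (24562 genes) and log2 values, which are the log2 of count times a pool factor plus 1. Pools held 17671193 to 27418358 counts. On average over the genes tested, counting error is small beside the spread between pools, since pools of a cohort differed by a chi-square per gene of 9.24 to 50.2. This average is weighted to abundant genes and does not speak for genes of few reads, such as Lats2 and Tead2.

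In edgeR 4.0.16 (R 4.3.3), the 13943 genes kept by filterByExpr (minimum count 10) were scaled by TMM and fitted by robust quasi-likelihood in 1 model of the 4 cohorts, or in a model of competent and non-competent oocytes. P-values were adjusted by Benjamini-Hochberg over all genes tested, and a gene was called where this p was 0.05 or less and the change 1.5-fold or more. The SE was taken as the size of the log2 fold change over the square root of F. Simulated counts were used to test the procedure. Alternatives used DESeq2 1.42.0, limma 3.58.1 on the log2 values, other scalings and filters, a replicate block and the omission of each pool.

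The genes, lists and tests were chosen with earlier results of these data known. Named genes were the 10 members, from each pathway list the called genes with the 2 largest changes in each direction in competent oocytes, the 2 genes most correlated with each member, and the 2 most abundant markers. Replicate numbers did not pair the pools. The log2 values entered only the limma and ratio alternatives. Amino acid sequences were not analysed here.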

Additional observations from a re-analysis of the deposited data

Results flagged for a closer look

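Tead4 in PND 40 replicate 1 stood apart from the other 5 competent pools. It measured 0.343 CPM (8 reads), while the nearest other pool was at 0 CPM. With the other 5 pools at 0, any pool with reads stands apart by construction. Among 20 groups of pools checked for a pool far from the rest this was the 1 that was found.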

How the results depend on the processing

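No member called in a comparison changed sign in it under any alternative, nor did a called pathway gene in competent vs. non-competent oocytes. Among the counts of called Hippo genes, the following moved. In PND 16 large vs. PND 16 small (1 called), DESeq2 gave 3, a filter of at least 1 CPM 2, the omission of the 3 pools high in granulosa markers 2, and single omitted pools 1 to 3. In PND 40 vs. PND 13 (2 called), limma gave 1, no fold criterion 4, the replicate block 1 (Wwtr1, adjusted p = 0.0598), the omission of the 3 pools 0, and single omitted pools 0 to 2. In PND 40 vs. PND 16 small (1), no fold criterion gave 2 and single omitted pools 0 to 2. In PND 16 large vs. PND 13 (1), no fold criterion gave 3, the omission of the 3 pools 0, and single omitted pools 1 to 3. In competent vs. non-competent oocytes (2), the omission of the 3 pools and the marker covariate each gave 1, and single omitted pools 1 to 2. Across the 4 cohorts (4), the omission of the 3 pools gave 2 and single omitted pools 3 to 5. The pathway lists (16 genes, 5 higher and 11 lower) gave 49 with no fold criterion (26 higher, 23 lower) and 12 to 19 without single pools. The log2 ratio of Yap1 to Wwtr1 (0.93) ran from 0.76 to 1.08 without single pools, past the threshold in 2 of 12. Omission of the 3 pools and the covariate were chosen after seeing the data. The replicate block changed no other call of the 9 genes, and same-numbered pools did not deviate together (r from -0.44 to 0.08, 0 of 18 pairs over 0.1), so the numbers only name pools. With total counts as the scale, the median change over all genes (log2) was -0.13 in PND 16 large vs. PND 13 and -0.12 in PND 16 small vs. PND 13, where the share of higher genes among those called went from 48.1% to 24.0%. Over all genes, the number called in PND 16 small vs. PND 13 (52) ran from 2 to 817 over the alternatives, that in PND 40 vs. PND 16 large (510) from 246 to 1081, and that in PND 16 large vs. PND 16 small (863) from 333 to 1715. It ran from 1064 to 3567 in PND 16 large vs. PND 13 (1858), from 1506 to 4612 in PND 40 vs. PND 13 (2637), from 1850 to 4207 in PND 40 vs. PND 16 small (2395) and from 1598 to 4283 in competent vs. non-competent oocytes (2087). Low counts limit Lats2 and Tead2 (25 to 144 reads per pool), and Tead4 was below what this depth can compare. The causes of these shifts were not tested.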
